A study of Mus musculus with 17 samples.

Results

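The 84 genes described here encode the nuclear subunits of the mitochondrial respiratory chain and of ATP synthase. They are the protein-coding mouse genes, among the 49585 gene identifiers counted in every library, whose symbol has the form Nduf with a, b, c, s or v and a number, Sdha to Sdhd, Uqcr, Cox4 to Cox8, or Atp5. By this rule 35 belong to complex I, 4 to complex II, 8 to complex III, 20 to complex IV and 17 to complex V. Ndufa4 and its paralog Ndufa4l2 carry a complex I symbol and were placed with complex IV, where the NDUFA4 protein is now assigned. Atp5s, taken in by its symbol, encodes a coupling factor and no structural subunit. The expression of these genes was measured in CD31+, Sca1+, CD45-, Ter119- cells sorted from mouse bone marrow, a gate for endothelial cells. The knockout (KO) animals were of the Cdh5:CreERT2-Engf/f line, in which a tamoxifen-inducible Cre under the promoter of the endothelial cadherin Cdh5 removes exons 5 and 6 of Eng, the gene for the TGF-beta co-receptor endoglin. All animals, wild-type (WT) controls included, are labelled as given tamoxifen, which was started at 8 weeks of age, and bones were taken 2 or 4 weeks later. The 17 libraries, from females and males, were 4 WT and 4 KO at week 2 and 5 WT and 4 KO at week 4, and each is named here by sex and number. Where all values of a group are listed, they are in the order f1, f4, m2, m3 at week 2 in both genotypes, and at week 4 in the order f, f3, m1, m2, m3 in WT and f2, m1, m2, m3 in KO. The labels do not say whether WT animals carried Cre or the floxed allele, or whether a library is 1 animal, so the p-values below measure the spread between libraries.

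The respiratory chain passes electrons from NADH through complex I, and from succinate through complex II, to ubiquinone, then through complex III and cytochrome c to oxygen at complex IV, while complexes I, III and IV pump protons that drive ATP synthesis by complex V. Most subunits are encoded in the nucleus and imported, and the remainder, which are absent from complex II, are encoded by mitochondrial DNA. Endothelial cells are known to make much of their ATP by glycolysis, and several complex IV subunits exist as ubiquitous, muscle-type, hypoxia-responsive or testis-type isoforms.

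Libraries held 20477400 to 40882715 counts in genes. Between 10886 and 13583 identifiers were detected in a library at week 2, against 15996 to 21235 at week 4, and mitochondrially encoded genes took 22.2% to 29.5% of counts at week 2 against 4.66% to 8.99% at week 4. Between 78 and 82 of the 84 members had more than 3 counts in a library. Levels are given as CPM, a gene's count scaled to the same library total for all libraries. The Eng level at week 2 was 705 to 1307 CPM in WT and lower in all KO libraries, at 225 to 347 CPM. At week 4 it was 2400 to 2735 CPM in WT and again lower in all KO libraries, at 873.5, 322, 1647 and 274 CPM. KO library m2 thus kept the most Eng at week 4. All 8 endothelial markers were above 3 counts in each group, with summed levels of 4634 to 6230 CPM at week 2 and 9929 to 12241 CPM at week 4. Transcripts of other cells were uneven. The 8 stromal and mural markers summed at week 2 to between 1928 and 3225 CPM in WT (median 2596) and between 1858 and 2086 CPM in KO (median 2020), and at week 4 to between 1838 and 5558 CPM in WT (median 3573) and between 1638 and 4728 CPM in KO (median 2625), and their part in the results below was not tested. The 4 leukocyte markers summed at week 2 to at most 15.2 CPM in WT (median 5.06), with Ptprc at 0, and to at most 150 CPM in KO (median 31.3, highest in m2), and at week 4 to at most 9.18 CPM in both. The summed level of the 9 neutrophil markers at week 2 lay between 22.7 and 108 CPM in WT libraries and between 107 and 4073 CPM in KO libraries. The erythroid markers (9 of 10 matched) summed at week 2 to between 61.5 and 233 CPM in WT and to between 278 and 1251 CPM in KO, with Klf1 at 0 in both. At week 4 they lay between 172 and 1303 CPM in WT and between 621 and 2916 CPM in KO. In bulk RNA, fewer cells of a type and less RNA per cell cannot be told apart.

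Promoters from RefSeq (GRCm38.p6) were available for 68 of the 84 members. The 250 bases before the annotated start were searched on both strands for GCGCA, any base, then GCGC (letters bound by NRF1) and for CCGGAAG (letters bound by ETS factors such as GABP), since both factors are known regulators of respiratory chain genes. The NRF1 letters occurred upstream of 13 of the 68 genes (19.2% of their 73 promoters against 3.74% of all 32851 RefSeq promoters), and the ETS letters upstream of 12 (16.4% against 6.91%). By complex, the NRF1 letters were found for 6 of 31 genes in complex I, 2 of 3 in complex II, 0 of 5 in complex III, 1 of 14 in complex IV and 4 of 15 in complex V. Both motifs were found for 3 members, Sdhd, Cox6a1 and Atp5h. The 4 sequences below were chosen because the results turn on these genes: Cox7a2l differed between the times in both genotypes and Sdhd in KO, Cox6a1 had the highest mean level per length over the 17 libraries, and Cox6b2 separated the genotypes at week 4. Capitals mark the matched letters, and each sequence is on the minus strand, at chr9:50603850-50604099, chr5:115348959-115349208, chr17:83514334-83514583 and chr7:4753095-4753344 in this order.
Sdhd: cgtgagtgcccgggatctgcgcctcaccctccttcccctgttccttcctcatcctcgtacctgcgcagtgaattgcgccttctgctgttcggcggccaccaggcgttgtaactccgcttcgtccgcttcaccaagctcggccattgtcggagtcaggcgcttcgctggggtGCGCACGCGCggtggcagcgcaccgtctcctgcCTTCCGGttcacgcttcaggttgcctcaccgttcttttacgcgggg
Cox6a1: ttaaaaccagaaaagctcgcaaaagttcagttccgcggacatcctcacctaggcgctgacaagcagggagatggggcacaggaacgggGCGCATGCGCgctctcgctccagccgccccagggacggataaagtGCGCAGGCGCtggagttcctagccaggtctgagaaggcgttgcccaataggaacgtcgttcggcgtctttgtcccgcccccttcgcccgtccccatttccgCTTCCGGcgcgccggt
Cox7a2l: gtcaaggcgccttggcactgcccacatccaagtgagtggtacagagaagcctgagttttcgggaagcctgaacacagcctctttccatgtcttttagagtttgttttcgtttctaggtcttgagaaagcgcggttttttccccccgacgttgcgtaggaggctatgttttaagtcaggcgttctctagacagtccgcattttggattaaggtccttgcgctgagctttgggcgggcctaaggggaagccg
Cox6b2: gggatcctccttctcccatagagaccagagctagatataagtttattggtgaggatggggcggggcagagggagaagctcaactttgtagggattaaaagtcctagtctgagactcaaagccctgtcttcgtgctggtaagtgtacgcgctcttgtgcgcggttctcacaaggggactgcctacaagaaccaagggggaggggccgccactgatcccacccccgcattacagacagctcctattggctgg
The Sdhd sequence holds 1 NRF1 match and 1 ETS match on the opposite strand, and that of Cox6a1 holds 2 NRF1 matches and 1 ETS match. Neither motif's letters occur in the Cox7a2l or the Cox6b2 window, which says nothing about binding elsewhere. The Cox7a2l window precedes the start in RefSeq, which lies inside the gene's span in GENCODE, where 1 noncoding transcript begins farther upstream.

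The nuclear subunits made up a small share of the libraries, 1.03% to 1.80% of counts at week 2 and 1.23% to 1.47% at week 4. Their summed level was 12512 ± 1763 CPM (SD, n = 4) in WT and 13438 ± 3064 (n = 4) in KO at week 2, and 12762 ± 425 (n = 5) in WT and 13820 ± 1084 (n = 4) in KO at week 4. The KO library f1 at week 2 stood above all others with 17991 CPM, and the WT library m3 at week 2 was lowest with 10277 CPM. The genotypes overlapped at each time. Library f1 was the highest of the 4 KO libraries at week 2 for 57 of the 81 members tested there, against 30% of all 10477 genes tested. WT library m3 was the lowest of its group for 43 of the 81 members, against 21.3% of all genes.

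At week 2 the summed nuclear level in WT was 3291 ± 546 CPM for complex I, 644 ± 43.7 for complex II, 1362 ± 250 for complex III, 2983 ± 526.1 for complex IV and 4233 ± 428 for complex V (SD, n = 4). The KO sums were 3604 ± 1025, 663 ± 180, 1461 ± 481, 3504 ± 737 and 4206 ± 704 CPM (SD, n = 4). At week 4 the WT sums were narrower, with 3590 ± 133, 634 ± 61.8, 1373 ± 70.7, 3110 ± 151 and 4055 ± 198 CPM for complexes I to V (SD, n = 5). In KO at that time the sums were 4001 ± 277, 637 ± 44.9, 1469 ± 94.1, 3381 ± 221 and 4331 ± 503 CPM (SD, n = 4), and in each complex the 2 genotypes overlapped at each time. The 13 mitochondrially encoded genes of the chain separated the times. Their sum was 183399 ± 16668 CPM in WT and 184180 ± 16599 in KO at week 2, against 36665 ± 7832 and 40328 ± 6528 at week 4, with no overlap between the times.

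**Figure D1:**
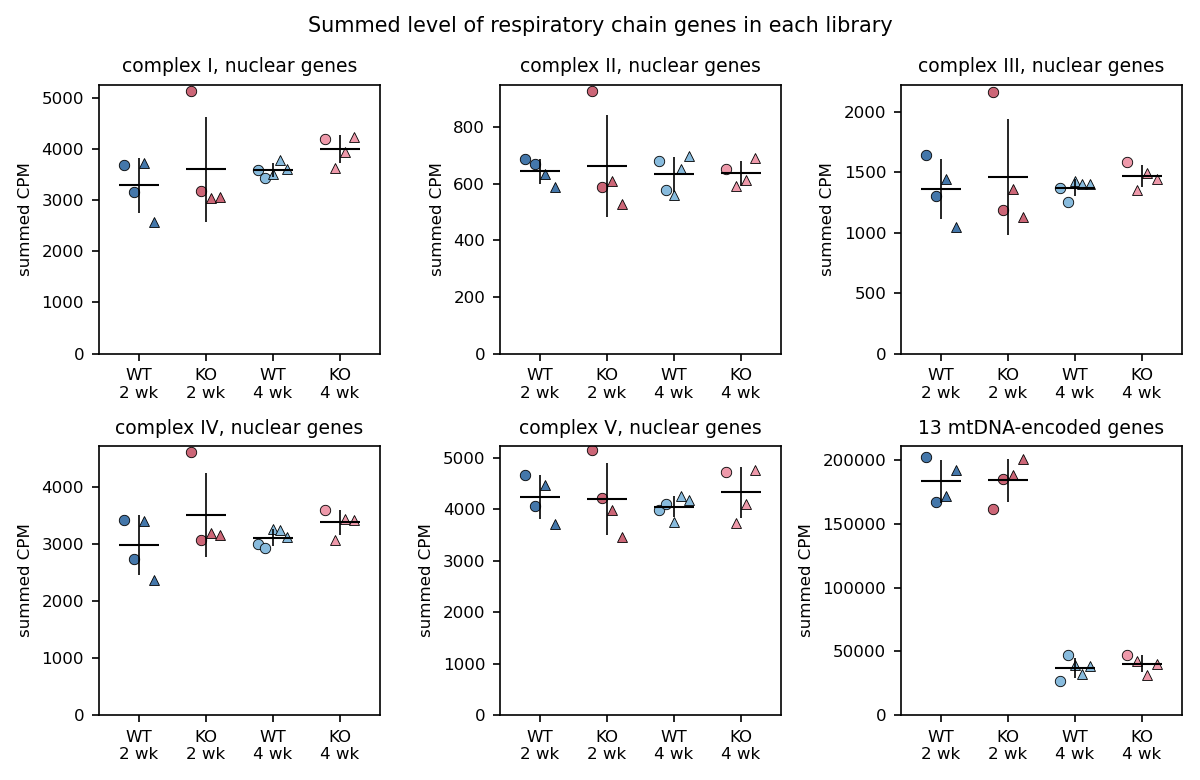
Summed level in CPM of the nuclear members of complexes I to V and of the 13 mitochondrially encoded genes in each library (circles female, triangles male; horizontal bar the mean, vertical line 1 SD). The nuclear sums overlap across all 4 groups, KO library f1 at week 2 is the highest point in complexes I to V, and the mitochondrially encoded sum is lower in every 4-week library.

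Levels were compared between genes as TPM, that is, counts per kilobase of annotated exon scaled to the same total in each library. Averaged over the 17 libraries, the highest level per length in the whole set was that of Cox6a1, a small complex IV subunit, at 1259 TPM, followed by Cox8a, another small complex IV subunit, at 931 TPM. In KO at week 2 Cox7a2l had a higher mean (1007 TPM) than Cox6a1 (957 TPM). In complex I the highest over all libraries were Ndufa2 (615 TPM) and Ndufa8 (579 TPM), accessory subunits, and their order turned with time: Ndufa2 had the higher mean at week 2 (661 against 528 TPM in WT, 635 against 522 in KO) and Ndufa8 at week 4 (622 against 567 TPM in WT, 636 against 609 in KO), with overlapping ranges in each group. In complex II they were the membrane anchor Sdhd (244 TPM) and the iron-sulfur subunit Sdhb (155 TPM), ahead of the flavoprotein Sdha (118 TPM) and the second anchor Sdhc (78.9 TPM), an order that all 4 group means kept except that Sdhc was above Sdha in KO at week 2 (82.0 against 79.8 TPM). In complex III they were Uqcrb (568.2 TPM) and Uqcr10 (510 TPM), and in complex V the catalytic beta subunit Atp5b (473 TPM) and the stalk subunit Atp5h (447 TPM), although at week 2 the highest mean in complex V was that of Atp5a1 in WT (415 TPM) and of Atp5h in KO (417 TPM). The lowest structural subunits per length of annotated exon were Ndufb2 (4.07 TPM) in complex I and Atp5l (29.9 TPM) in complex V. Among the catalytic core subunits of complex I, Ndufs1 had 15.1 TPM and Ndufs8 had 237 TPM. Cox8c, a testis-type isoform, had 0 counts in all 17 libraries, where 3 counts would be 0.0734 to 0.147 CPM, and Cox7b2 had 1 count in 1 library. Of the 84 members, 2 have near-identical copies elsewhere among the transcripts, Atp5h with 3 pseudogenes and Atp5g2 with 2. The copies held 1.91% and 1.09% of the reads. Reads that fit a gene and its copy equally may not have been counted, so these 2 levels are uncertain by an unknown amount.

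Of most complex IV isoform families, the ubiquitous form dominated. The Cox6a1 share of the Cox6a level per length was 99.8% ± 0.227 (SD, n = 5) in WT at week 4, with the muscle-type Cox6a2 as the remainder. The Cox8a share was 99.9% ± 0.173 and the Cox6b1 share 99.96% ± 0.0944, against the muscle-type Cox8b and the testis-type Cox6b2. The shares of the minor forms did not move together between the times. At week 2 the mean share of Cox6a2 was 0.653% ± 0.457 in WT and 1.66% ± 1.37 in KO, and that of Cox8b 1.26% ± 1.48 and 0.845% ± 1.35 (SD, n = 4 each), each above its mean at week 4, which was 0.196% ± 0.227 and 0.133% ± 0.119 for Cox6a2 and 0.126% ± 0.173 and 0.227% ± 0.216 for Cox8b (SD, n = 5 and 4). The share of the muscle-type Cox7a1 went the other way, with 0.145% ± 0.29 in WT and 0.0741% ± 0.148 in KO of the Cox7a level at week 2 (SD, n = 4 each), against 0.273% ± 0.194 (n = 5) and 0.406% ± 0.328 (n = 4) at week 4. Most of the Cox7a level at week 2 was Cox7a2l, which fell between the times, so this share can rise with Cox7a1 unchanged. The fitted log2 difference of Cox7a1 itself, week 4 over week 2, was 0.13 ± 2.21 in WT and 1.35 ± 2.07 in KO (standard error). All 3 muscle-type forms were at 0 in some libraries at week 2, and the ranges of the times overlapped for each in both genotypes. Skeletal muscle markers summed to between 116 and 500.4 CPM in WT and between 83.4 and 210 CPM in KO at week 2, with Myh4 at 0 in both and Myh1 and Myh2 at 0 in KO. At week 4, with 10 of 10 detected, they lay between 50.4 and 163 CPM in WT and between 39.4 and 71.3 CPM in KO. Their median at week 2 was lower in KO (179.5 CPM) than in WT (206 CPM). The mean shares of Cox8b and Cox7a1 at week 2 were lower in KO too, and that of Cox6a2 was higher. The part of muscle transcripts in the muscle-type isoforms was not tested. Ndufa4l2, described below, made up 14.9% to 29.8% of the Ndufa4 family in the 4 group means, over all annotated exons. With the length of the principal transcript, an alternative chosen after seeing the data, it was 8.36% to 18.2%. Cox4i2, the hypoxia-responsive form of the Cox4 subunit, had a smaller share. Its share of Cox4 was 3.53% ± 2.85 in WT and 2.05% ± 2.64 in KO at week 2 (n = 4 each), and 3.27% ± 2.15 (n = 5) in WT and 4.11% ± 1.73 (n = 4) in KO at week 4, so the groups overlapped. These shares depend on the length used: with the length of the longest transcript in place of all annotated exons the Cox4i2 means were 1.92%, 1.11%, 1.77% and 2.23% in the same order. Cox4i2 was at 0 counts in WT library f1 and KO library m3 at week 2 and at 4.30 to 22.2 CPM in every 4-week library.

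Ndufa4l2, a hypoxia-inducible paralog of Ndufa4, gave 41.0, 19.6, 19.6 and 17.2 CPM in WT and 82.9, 35.8, 37.2 and 64.3 CPM in KO at week 2. WT library f1 lay inside the KO range and the other WT libraries below it. At week 4 it gave 70.8, 42.6, 22.9, 55.2 and 39.4 CPM in WT and 39.5, 25.1, 45.0 and 31.4 CPM in KO, and the KO libraries lay inside the WT range. Its exons overlap those of Shmt2, and with reads not stated to be counted by strand the 2 genes cannot be fully separated. The 3 genes for the c subunit of ATP synthase, which encode the same mature protein, kept one order in all 4 group means, with Atp5g3 at 45.0% to 56.5% of their summed level per length, Atp5g2 at 33.7% to 41.8% and Atp5g1 at 9.78% to 13.4%. With the longest transcript the Atp5g1 share was 4.48% to 6.31%, and with the principal transcript, an alternative chosen after seeing the data, 3.97% to 5.64%. The order held with each length. The shares of Atp5g3 and Atp5g2 over all annotated exons overlapped in range in every group but WT at week 4, and with the principal transcript they overlapped in no group.

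**Figure D2:**
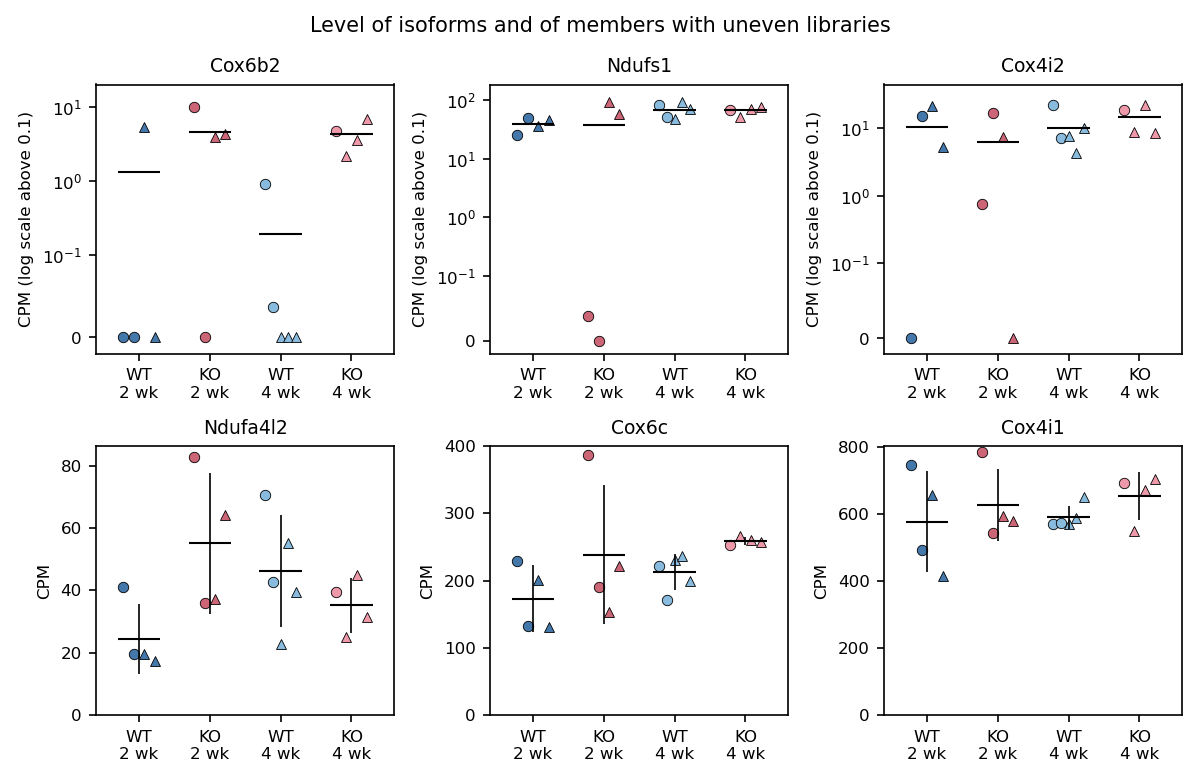
Level in CPM of isoforms and of members with uneven libraries (circles female, triangles male; horizontal bar the mean, vertical line 1 SD on linear axes). Cox6b2 is at or near 0 in most WT libraries, Ndufs1 is at or near 0 in KO libraries f1 and f4 at week 2, and Ndufa4l2 has its lowest group mean in WT at week 2.

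Whether loss of Eng changed respiratory chain transcripts was asked at each time with edgeR's quasi-likelihood test across all genes, with sex as a term and Benjamini-Hochberg adjustment. Differences are log2 fold changes, KO over WT, with the standard error (SE). At week 2, of the 81 members tested, 0 passed an adjusted p of 0.05. The whole table gave 0 of 10477 genes (percent called: 0). At an unadjusted p under 0.05 there was 1 member, Cox7a2l, against 2.63% of all genes. With DESeq2 in place of edgeR, 1 member, again Cox7a2l, passed, among 149 genes. In all, 56 of 81 members were above 0, against 46.9% of all genes, with a median log2 difference of 0.17 against -0.06 for all genes. Above 0 were 23 of 35 members of complex I, 1 of 4 of complex II, 7 of 8 of complex III, 14 of 17 of complex IV and 11 of 17 of complex V. Without KO library f1, 40 of 81 members were above 0 and the median was -0.01, and without WT library f4 they were 46 of 81 and 0.04. The neutrophil markers (9 of 9 detected) were higher in KO libraries m2 and m3, at 4073 and 3130 CPM, than in f1 and f4, at 107 and 238 CPM, and without m2 and m3 the members' median was 0.28. The part of the erythroid transcripts, higher in KO at this time too, was not tested.

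Cox7a2l, whose product joins complex III to complex IV in supercomplexes, gave 537.5, 581, 839 and 664 CPM in WT and 833, 676, 927 and 868 CPM in KO at week 2. The groups overlapped, with KO libraries f1 and f4 below WT library m2. The log2 difference was 0.35 ± 0.0974 (SE), with an adjusted p of 1 (edgeR). Sdhd gave 162, 98.6, 166 and 107 CPM in WT and 241, 201, 153 and 202 CPM in KO. All KO libraries but m2 lay above the WT range, the log2 difference was 0.58 ± 0.249 (SE), and the adjusted p was 1 (edgeR). Ndufa4l2, whose values are given above, had a log2 difference of 1.22 ± 0.566 (SE). On the lower side, Atp5a1, the alpha subunit of ATP synthase, had -0.64 ± 0.303, the core subunit Ndufs7 -0.52 ± 0.357, and Atp5b -0.28 ± 0.198, with an adjusted p of 1 for each (edgeR).

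The core subunit Ndufs1 was split among the 2-week KO libraries. It had 1 count in f1 and 0 in f4, but 2721 in m2 and 2096 in m3, while the other 13 libraries had 953 to 2892 counts. Both libraries at or near 0 were from females, and the 2 female WT libraries of that time had 953 and 2041 counts. The fitted log2 difference of -4.41 ± 4.59 (SE) depends on the small count added to zeros and is no bound. Libraries f1 and f4 held 26705337 and 33938327 counts in all, and the part of depth in these values was not tested. Exons of Ndufs1 overlap those of Eef1b2 and Ino80dos.

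At week 2 the members' folds were also loosely measured. The 95% interval of the log2 difference lay within a 2-fold change either way for 39 of 81 members, against 10% of all genes, and at week 4 for 75 of 82, against 35%. The median SD of the members' log2 CPM within a group was 0.384 in WT and 0.48 in KO at week 2 and 0.216 and 0.234 at week 4, each below that of genes of the same level (0.491, 0.561, 0.279 and 0.286).

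At week 4, of the 82 members tested, again 0 passed an adjusted p of 0.05, as did 0 of 15209 genes (percent called: 0). With DESeq2 1 member passed, Cox6b2. At an unadjusted p under 0.05 there were 3 members, all higher in KO, against 2.77% of all genes. Most members leaned one way by a little: 73 of 82 were above 0, against 51.3% of all genes, with a median log2 difference of 0.16 against 0.01. By complex, 32 of 35 were above 0 in complex I (median 0.16), 3 of 4 in complex II (0.05), 6 of 8 in complex III (0.14), 16 of 18 in complex IV (0.15) and 16 of 17 in complex V (0.19). Without KO library f2 the counts were 61 of 82 with a median of 0.08, and with the 6 male libraries alone 58 of 81 with a median of 0.07. The erythroid markers, all 9 detected in both genotypes and with medians of 282 CPM in WT and 1977 CPM in KO, moved with this lean, and their part in it was not tested. Of the 81 members tested at both times 51 were above 0 at both (63%, against 26.2% of 10340 genes). Below 0 at both were 4, and 26 differed in sign. Most members were above 0 at each time taken alone, so many would be above 0 at both even if the times were unrelated. The count therefore does not show that a rise recurred, and agreement beyond the separate leans was not tested. The lean at the earlier time was lost when KO library f1 was left out, as given above.

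Cox6b2 separated the genotypes at week 4. Its counts were 31, 1, 0, 0 and 0 in WT and 97, 59, 95 and 181 in KO. All KO libraries were above all WT libraries, at 4.34 ± 1.98 CPM (SD, n = 4) against 0.191 ± 0.407 (n = 5). The fitted log2 difference was 7.50 ± 1.85 (SE) with an adjusted p of 1 (edgeR), and since 3 WT libraries were at 0 it is no bound. DESeq2 gave an adjusted p of 0.00144 for this gene, and that was the only member it called among 17 genes. At week 2 the counts were 0, 0, 174 and 0 in WT and 269, 0, 116 and 157 in KO, so the groups overlapped. Even in KO at week 4 Cox6b2 was 0.968% ± 0.462 of the Cox6b level per length, or 1.59% ± 0.753 with the longest transcript.

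Cox6c, a small subunit of complex IV, gave 222, 171, 231, 236.5 and 200 CPM in WT and 252, 266, 260 and 257 CPM in KO at week 4. Every KO library was above every WT library, and the KO spread was narrow. The log2 difference was 0.29 ± 0.106 (SE) with an adjusted p of 1 (edgeR). Cox6b2 and Cox6c were the 2 members without overlap between genotypes at this time, against 1.16% of all genes. All KO libraries were above all WT libraries for 0.625% of the genes. At week 2 no member was free of overlap (0 of 81, against 3.36% of all genes). The complex I accessory subunit Ndufb7 gave 127, 102, 120, 132.5 and 119.5 CPM in WT and 147, 127, 184 and 146 CPM in KO, and the groups overlapped through KO library m1. Its log2 difference was 0.33 ± 0.131 (SE). On the lower side were Ndufa4l2 (-0.28 ± 0.297), Sdhd (-0.11 ± 0.188) and Cox6a2 (-0.57 ± 1.28, with 0.0321 to 2.53 CPM in WT, 0.0374 to 1.16 CPM in KO), all with an adjusted p of 1 (edgeR). The sign of Cox6a2 turned without WT library m3.

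**Figure D3:**
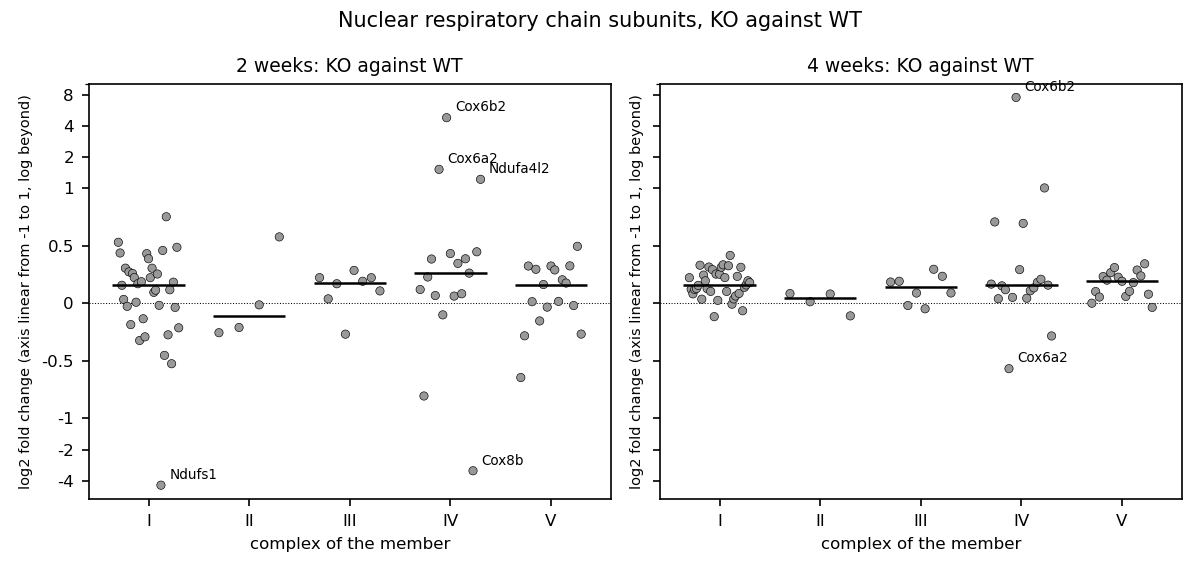
Log2 fold change of KO against WT (edgeR) for each member at week 2 (81 members) and week 4 (82 members), by complex, on an axis that is linear between -1 and 1 and logarithmic beyond (bar, median of the complex). No member passed an adjusted p of 0.05 at either time, and most points at week 4 lie a little above 0.

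The change of the KO effect from 2 to 4 weeks was tested in a fit over all 17 libraries. Of the 82 members 0 passed, against 0.0764% of 15703 genes (12 genes). At an unadjusted p under 0.05 there were 2 members, against 9.81% of all genes, and 47 of 82 members were above 0, against 51.5%. The 95% interval lay within a 2-fold change for 45 of 82, against 5.36%. The smallest p was that of Ndufa4l2, whose KO effect differed between week 4 and week 2 by a log2 of -1.53 ± 0.556 (SE), with an adjusted p of 0.397 (edgeR). DESeq2 gave an adjusted p of 0.0444 for the same difference, the only member it called among 1303 genes. Sdhd followed at -0.70 ± 0.292, with an adjusted p of 0.453 (edgeR). Cox7a2l was at -0.27 ± 0.184, and on the other side were Atp5a1 (0.66 ± 0.338), the complex I subunit Ndufb3 (0.52 ± 0.339) and the complex III core protein Uqcrc1 (0.34 ± 0.23), none past the threshold. Without the KO libraries m2 and m3, which held the most neutrophil transcripts, 1 member passed, Ndufs1, where the 2-week KO group then consisted of the libraries at 1 and 0 counts.

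Other genes of the pathway gave no call between genotypes either. Of 46 assembly factors, which build the complexes and are no part of them, 40 were tested at week 2 and 45 at week 4, and 0 passed at each. None of the 9 tested electron carrier and coenzyme Q genes at week 2, the 14 at week 4, or the 7 and 9 tested nuclear regulators passed. The 13 mitochondrially encoded genes gave medians of 0.05 at week 2 and 0.11 at week 4, and 0 passed. The cytochrome c gene Cycs had 66.4 ± 22.8 (WT) and 83.0 ± 38.3 CPM (KO) at week 2, and 90.1 ± 6.69 and 94.2 ± 8.96 CPM at week 4.

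Between the times, a few named members fell while the set as a whole stood apart from the mitochondrially encoded genes. The labels do not say whether the 2-week and 4-week libraries were made together, so time and batch cannot be told apart. The endothelial and mitochondrial shares and the number of identifiers detected, given above, moved with time. In WT 4 of 82 members passed an adjusted p of 0.05 with edgeR and these were lower at week 4, against 6.92% of 15703 genes called in either direction and 1.88% called lower. In KO 3 of 82 passed with edgeR, these too lower, against 6.33% in either direction and 1.49% lower. DESeq2 called 7 of 82 members in each genotype, against 2938 of the same 15703 genes in WT and 2873 in KO. Of these members 1 in each genotype was higher at week 4: Ndufa4 in WT and the complex I accessory subunit Ndufc2 in KO (log2 difference 0.96, adjusted p 0.0253). The 2 comparisons share no library but share 1 estimate of the spread. At an unadjusted p under 0.05 there were 14 members in each genotype, against 22.7% of all genes in WT and 23% in KO. The median log2 difference of the members was -0.22 in WT and -0.18 in KO, against 0.42 and 0.49 over all genes. Above 0 were 24 of 82 members in WT and 30 in KO, against 63.5% and 64.4% of all genes. Fewer identifiers were detected at week 2, and the part of this in the all-gene values was not tested. The 95% interval lay within a 2-fold change for 53 and 52 of the members, against 6.97% and 6.1% of all genes. With TMM-scaled values 10 members did not overlap between the times in WT, 9 of them lower at week 4, against 16.2% of all genes in either direction and 4.32% lower. The other, Ndufa4, was higher, at a log2 difference of 0.67 ± 0.226 with an adjusted p of 0.0914 (edgeR). It passed with DESeq2 (0.72, adjusted p 0.0219) and with edgeR without KO library f1 at week 2 (0.66, adjusted p 0.0184), and without that library it also passed in KO (0.67, adjusted p 0.0415). In KO 7 did not overlap, all lower, against 21.2% in either direction and 4.3% lower. By contrast 13 of 13 mitochondrially encoded genes fell in each genotype, with medians of -2.42 and -2.41.

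Cox7a2l fell the most among the members that passed. At week 4 it gave 264, 328, 352.5, 303 and 327 CPM in WT and 338.5, 305, 381 and 331 CPM in KO, and every one of these lay below every 2-week library. The log2 difference was -1.37 ± 0.126 (SE; adjusted p 2.59e-05) in WT and -1.64 ± 0.138 (adjusted p 2.13e-05) in KO (edgeR), and it passed in each of the 24 alternative settings run for each genotype. Its near relative Cox7a2, the ubiquitous form of the complex IV subunit, had a log2 difference of 0.01 in WT and -0.02 in KO and overlapped between the times, at 126 to 289 CPM at week 2 and 164 to 257 at week 4. The Cox7a2l share of the summed Cox7a level per length went from 71.4% ± 4.61 to 49.7% ± 4.55 in WT and from 75.4% ± 7.30 to 50.6% ± 2.19 in KO (SD). Cox7a2l lies at chr17:83501918-83517330 (GRCm38, minus strand).

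In complex II the membrane anchor Sdhc fell in both genotypes and the anchor Sdhd fell in KO. The 2 catalytic subunits did not pass in either. Sdhc gave 173, 119, 167 and 140 CPM in WT and 132, 164, 138 and 156 in KO at week 2, and 108, 94.9, 85.4, 85.9 and 116 in WT and 117, 80.2, 65.8 and 138 in KO at week 4. The WT times did not overlap. In KO, library m3 at week 4 lay among the 2-week values in CPM, but below them with TMM-scaled library sizes. Its log2 difference was -0.91 ± 0.223 in WT (adjusted p 0.0277) and -0.85 ± 0.239 in KO (adjusted p 0.0487; edgeR). The call held in 16 of 24 alternative settings in WT, with adjusted p of 0.00251 to 0.0803, and in 6 of 24 in KO, with 0.0112 to 0.191 (edgeR or DESeq2). Its log2 difference stayed below 0 in all 24 settings for each genotype, at -1.03 to -0.85 in WT and -1.06 to -0.69 in KO. The WT call was lost without the low-count filter and without WT library f1, m2 or m3 at week 2 or f, f3, m1 or m2 at week 4, and of the 17 libraries left out in turn the KO call held only without WT library f4 at week 2 or KO library m3 at week 4. Sdhd gave 114, 125, 93.3, 149 and 145 CPM in WT and 105, 109, 106 and 144 in KO at week 4. Its KO libraries at week 4 were all below those at week 2, with a log2 difference of -1.09 ± 0.217 (adjusted p 0.00909, edgeR), whereas in WT the times overlapped, at -0.40 ± 0.199 with an adjusted p of 0.266 (edgeR). That the 2 genotypes differed in this was not shown, as the test of the difference above had an adjusted p of 0.453 (edgeR). Sdha had -0.05 in WT and 0.28 in KO, and Sdhb -0.15 and 0.09, with adjusted p of 0.745 or more (edgeR).

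The other 2 members that passed with edgeR did so in WT. Ndufa2, an accessory subunit of complex I, gave 215, 213, 208 and 166 CPM at week 2 and 123, 85.8, 146, 183 and 109 at week 4, and the times overlapped in CPM through WT library m2 at week 4, but not with TMM-scaled library sizes. Its log2 difference was -0.94 ± 0.224 (adjusted p 0.0247, edgeR), and in KO it was -0.76 ± 0.243 (adjusted p 0.075, edgeR). In KO it passed in 4 settings, with DESeq2 (adjusted p 0.0498), without the sex term, without KO library m2 and without m2 and m3 at week 2, and Atp5o, a stalk subunit of ATP synthase, passed there in 7 settings, lower in each. Atp5d, the delta subunit of the ATP synthase stalk, gave 243, 314.5, 312.5 and 242 CPM at week 2 and 221.5, 265, 164, 182 and 247 at week 4, and the times overlapped in CPM through WT libraries f3 and m3 at week 4, but not with TMM-scaled library sizes. Its log2 difference was -0.65 ± 0.183 (adjusted p 0.0467, edgeR), and the call held in 9 of 24 alternative settings, with adjusted p of up to 0.136. Of the 17 libraries left out in turn it held only without KO library f1 or f4 or WT library f1 at week 2, or KO library m2 or WT library f3 or m3 at week 4. The Ndufa2 call held in 19 of 24 settings and was lost without WT library f1 or m2 at week 2 or f, f3 or m3 at week 4, with adjusted p of up to 0.0677 (edgeR). Exons of Ndufa2 overlap those of Tmco6, and exons of Atp5d those of Cbarp. The core complex I subunits gave 0 calls in 7 in either genotype, with medians of -0.01 and -0.02. Without KO libraries m2 and m3 at week 2, 1 of them, Ndufs1, passed in KO, higher at week 4 (adjusted p 7.92e-05, edgeR), where the 2-week KO group consisted of the libraries at 1 and 0 counts and the fitted fold is no bound.

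Among the complexes, V lay lowest in WT, with 16 of 17 members below 0 and a median of -0.41, and complex IV at 0.01 with 8 of 18 below 0. Complexes I, II and III had medians of -0.12, -0.28 and -0.26. In KO the medians were -0.02, -0.38, -0.23, -0.08 and -0.34 for complexes I to V. These levels depend on what they are set against: the summed members went from 12512 to 12762 CPM of the library total in WT, but from 16694 to 13671 CPM with mitochondrially encoded genes left out of the total, and from 13892 to 11495 CPM with TMM-scaled library sizes.

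**Figure D4:**
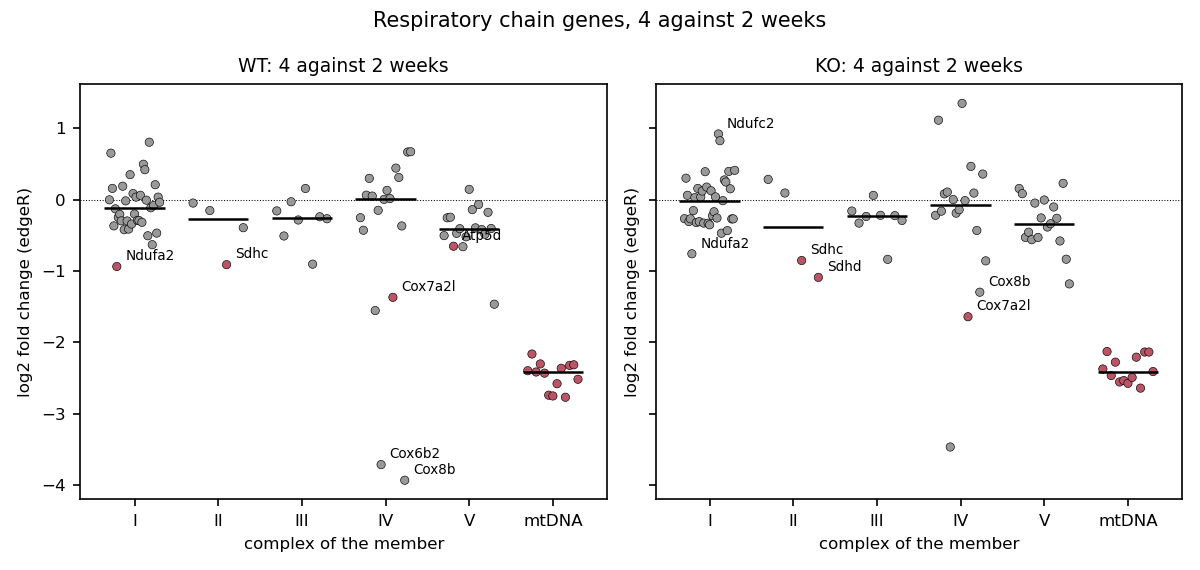
Log2 fold change of 4 against 2 weeks (edgeR) in WT and KO for each of 82 nuclear members by complex and for the 13 mitochondrially encoded genes (mtDNA; red, adjusted p at most 0.05; bar, median). The 4 WT and 3 KO members that passed lie below 0, and the mitochondrially encoded genes lie near -2.42 and -2.41.

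**Figure D5:**
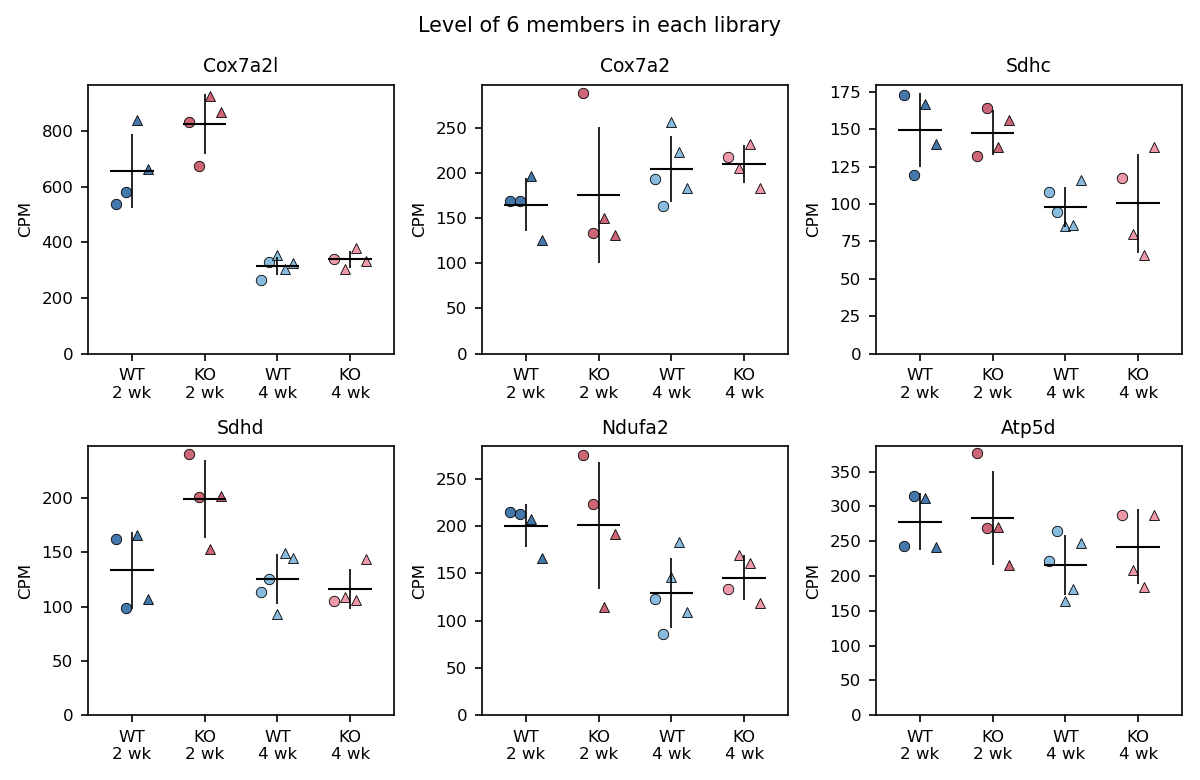
Level in CPM of the members that passed between the times, with Cox7a2 beside Cox7a2l, in each library (circles female, triangles male; horizontal bar the mean, vertical line 1 SD). Cox7a2l lies between 264 and 381 CPM in the 4-week libraries and at 537.5 CPM or more in the 2-week libraries, while Cox7a2 overlaps.

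Of the pathway lists, 1 assembly factor rose and 1 fell between the times in WT, Ttc19 and Coa3, and 1 fell in KO, Coa5, out of 45 tested, against the 6.92% and 6.33% of all genes called in WT and KO. Coa3, a complex IV assembly factor, went from 113 ± 34.8 to 71.8 ± 10.8 CPM in WT (SD, n = 4 and 5), a log2 difference of -0.90 with an adjusted p of 0.0277 (edgeR). Ttc19, which acts in complex III assembly, went from 0.025 ± 0.0346 to 4.39 ± 1.70 CPM, and the coenzyme Q methyltransferase Coq3 from 0 in each library to 6.25 ± 4.67 CPM, and for both the fitted fold is no bound. Of the 9 tested nuclear regulators 0 passed in either genotype, Nrf1 and Gabpa among them.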

How the data were processed

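Libraries were made with SmartSeq2 from sorted cells, per the labels' protocols, without molecular identifiers, so a floor reflects counting alone. As deposited, the files hold unnormalized counts for each Ensembl gene, and for these the submitters' processing notes name cutadapt, STAR, HTSeq 0.6.1p1, GRCm38 and mm10; the strand setting is not given in the sources used here. Symbols, lengths and positions came from GENCODE M21 (GRCm38), which left 259 of 49585 identifiers without a symbol. CPM used the library total, and TPM the union of annotated exons.

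Fits across all genes used edgeR 4.0.16 (filterByExpr by group, TMM scaling, quasi-likelihood test, sex term, Benjamini-Hochberg adjustment, threshold 0.05) in R 4.3.3. Each time was fitted alone for the KO effect, and all 17 libraries together for the other comparisons. DESeq2 1.42.0, other scalings, no low-count filter, no sex term, a replicate block and leaving out libraries were tried. The fits were tested on simulated data. The members and gene lists were chosen with earlier results of these data known. Named with values are the highest members per length in each complex, isoform families, Sdh genes, core complex I subunits, and in each comparison the members that passed or otherwise those with the smallest p. Gene coordinates are 1-based.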

Additional observations from a re-analysis of the deposited data

Results flagged for a closer look

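In 11 of the 136 groups of values examined, 1 library lay far from the others of its group by Dixon's criterion, which chance alone gives in about 5% of groups. At week 2 the KO library f1 stood apart in the summed level of complex I (5139 CPM), of complex IV (4607 CPM) and of all members (17991 CPM). WT libraries of that time stood apart for Cox6b2 (m2, 5.34 CPM, the only one above 0), Ndufa2 (m3, 166 CPM, the lowest) and Ndufa4l2 (f1, 41.0 CPM, the highest). At week 4 WT libraries stood apart for Cox4i1 (m3, 651 CPM), Cox6b2 (f, 0.919 CPM) and Cox8a (m2, 267 CPM), and KO libraries for Sdhd (m3, 144 CPM) and Uqcrb (f2, 295 CPM).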

How the results depend on the processing

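With DESeq2, 1 member passed for the KO effect at week 2 (149 genes in all), 1 at week 4 (17 genes) and 1 for their difference (1303 genes, against 12 with edgeR). Between the times DESeq2 called 7 members in WT and 7 in KO (2938 and 2873 genes, against 1086 and 994). Without the low-count filter 2 members passed in WT (580 genes). Without the sex term 5 passed in KO, against 3 with it, where 6.33% of all genes were called. The all-gene count without the sex term is not given here. Without the week 2 KO libraries m2 and m3, 1 member passed for the difference of the KO effects (251 genes), with a median of -0.14. Between the times in KO 6 members then passed (5 lower and Ndufs1 higher), and the all-gene count for that comparison is not given here. Leaving out 1 library at a time gave 1 to 6 members in WT and 2 to 5 in KO. With all 17 libraries edgeR called 6.92% of all genes in WT and 6.33% in KO. The all-gene counts with 1 library left out are not given here. The log2 KO effect of Cox6a2 at week 4 ranged from -1.09 to 1.18 when 1 library was left out (1.18 without WT library m3). The summed level moved to 16694, 18108 and 13671 CPM (WT and KO at week 2, WT at week 4) with mitochondrially encoded genes left out of the total, and to 11495 and 12580 CPM (WT and KO at week 4) with TMM-scaled library sizes. The causes were not tested. Libraries that share a number across genotypes had an r of -0.024 to 0.194 between their deviations from the group means. The best match in KO had the same number for f1 at week 2 and for m2 and m3 at week 4. With so few libraries this cannot tell whether the numbers pair them. With the replicate block 0 members passed at either time, and the medians were 0.17 (4 pairs at week 2) and 0.07 (3 male pairs at week 4), where Cox6a2 was at 0.0532. For genes with few counts, such as Cox6b2, the part of depth in the fold was not tested.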
